A study of Mus musculus with 4 samples.

Results

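Fibro-adipogenic progenitors are connective tissue cells that lie between muscle fibres and can form fibroblasts, fat cells and bone-forming cells. Accessibility at 10 genes that mark them (Osr1, Pdgfra, Dcn, Lum, Gsn, Cd55, Pcolce, Mfap5, Twist2 and Tcf21) was read in quiescent satellite cells, the resting stem cells of muscle fibres. The members were all regions of the deposited ATAC-seq table that are linked to one of these genes by name. There were 6 such regions of 35019 in all, from 5 of the 10 genes: 2 regions of Pdgfra and 1 each of Osr1, Gsn, Cd55 and Dcn. ATAC-seq counts the places where Tn5 transposase can cut, which are mostly promoters and enhancers free of nucleosomes. The 2 groups were mdx mice, which carry a mutation of Dmd and lack functional dystrophin, and wild type mice, with 2 libraries of sorted cells in each group. The design text speaks of 3 mice per condition, and 4 libraries were analysed here. Age, sex, strain and the markers of the sort were not in the sources used here. Because no label ties a library to an animal, the p-values speak for the spread between these libraries alone.

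Fibro-adipogenic progenitors are told from satellite cells by Pdgfra, a receptor for platelet-derived growth factor, and in development and repair many of them switch on Osr1, a zinc finger transcription factor. They feed regenerating muscle with matrix and signals, and in dystrophic muscle they are a known source of scar and fat. Satellite cells are marked by the transcription factor Pax7 instead. In bulk libraries, a difference in the number of cells with an open region and a difference in accessibility per cell cannot be told apart.

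Values are scaled reads per region, as the authors scaled them. Recovered reads came to 3208320 and 3607443 for mdx, and to 3693345 and 8165578 for wild type. Promoter regions, those within 1 kb of the start of their linked gene, held 52.76% and 57.21% of the nuclear signal in mdx and 64.15% and 61.09% in wild type. The median log2 fold change, mdx minus wild type, was -0.26 over 10139 tested promoters with a gene name and 0.19 over 21869 distal regions. A member is read against the class it belongs to.

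Among all members, the promoter of Osr1 had the largest difference between the groups, and the other 5 regions had log2 fold changes from -0.30 to 0.02. None of the 6 passed the test across all regions (limma, Benjamini-Hochberg adjusted p under 0.05), where 4.18% of 33161 tested regions did: 1095 (3.3%) were higher in mdx and 292 (0.881%) lower. That split was 1821 against 159 when promoter medians were set equal and 1222 against 3465 when distal medians were, where the median over the whole table was 0.19 and -0.35 in place of -0.01. Of the named promoters, 2.23% passed. At an unadjusted p under 0.05, 1 of the 6 members was counted, against 23.0% of all regions, and voom on recovered reads also called 1 at an adjusted p under 0.05. All 6 passed the filter on low values.

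**Figure D1:**
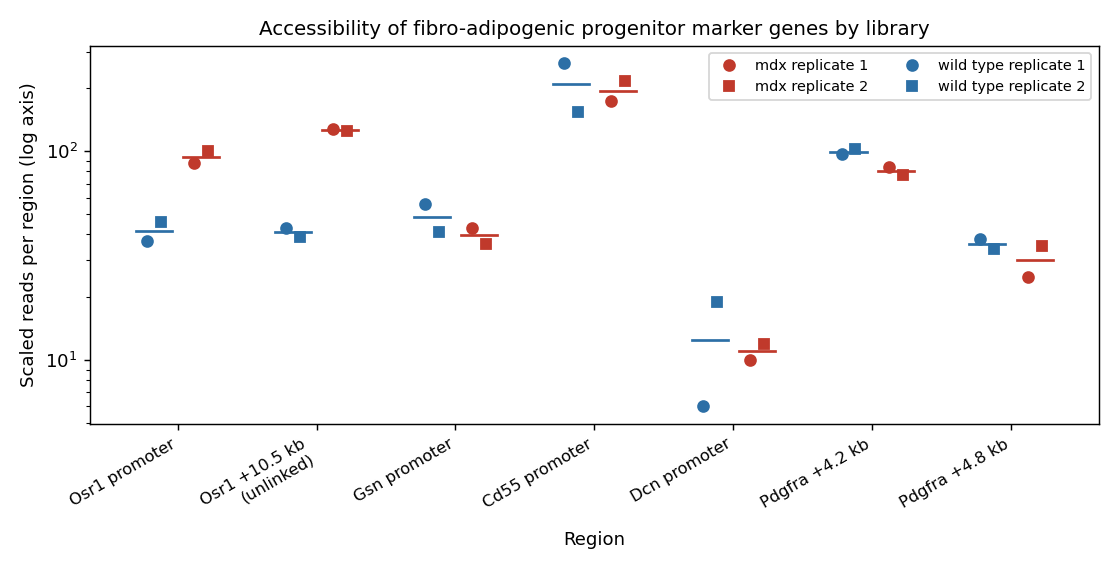
Scaled reads (vertical log axis) in the 6 regions linked to the marker genes and in the unlinked region 10.5 kb after the start of Osr1, with 1 point per library and a bar at each group's mean. The Osr1 promoter and the unlinked region after that gene lie higher in the 2 mdx libraries than in either wild type library, while the promoters of Gsn, Cd55 and Dcn overlap between the groups.

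Promoter sequences are shown for 4 members, to set promoters that lie in a listed region beside promoters that do not. They are the 250 bases before the gene start, 5′ to 3′ on the gene's strand, from RefSeq (GRCm38.p6). Of the 10 genes, 6 matched a RefSeq promoter (8 windows, of which 3 belong to Gsn), and Osr1, Dcn, Lum and Mfap5 did not. Gsn and Cd55 were taken by a rule on the size of their change, and Pdgfra and Twist2 were chosen after the values were seen. Capitals mark the E-box CANNTG, the GC box GGGCGG and the CCAAT box CCAAT, each searched on both strands, and adjoining matches run together. The searches for TATAAA and for the AP-1 motif (TGACTCA or TGAGTCA) found 0 matches in these 4.
Gsn: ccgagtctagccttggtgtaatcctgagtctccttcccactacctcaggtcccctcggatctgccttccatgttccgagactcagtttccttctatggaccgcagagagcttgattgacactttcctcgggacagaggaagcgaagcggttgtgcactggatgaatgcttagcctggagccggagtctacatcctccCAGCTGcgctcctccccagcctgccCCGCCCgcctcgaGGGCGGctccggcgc
Cd55: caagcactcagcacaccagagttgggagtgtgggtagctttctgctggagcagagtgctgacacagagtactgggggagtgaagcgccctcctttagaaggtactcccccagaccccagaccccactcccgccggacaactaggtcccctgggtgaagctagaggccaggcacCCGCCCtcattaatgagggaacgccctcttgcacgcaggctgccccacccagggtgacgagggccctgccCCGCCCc
Pdgfra: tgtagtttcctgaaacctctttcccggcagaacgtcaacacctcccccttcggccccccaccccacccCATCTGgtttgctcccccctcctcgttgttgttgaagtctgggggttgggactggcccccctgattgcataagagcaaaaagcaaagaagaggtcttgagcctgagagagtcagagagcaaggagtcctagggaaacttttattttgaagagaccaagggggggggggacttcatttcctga
Twist2: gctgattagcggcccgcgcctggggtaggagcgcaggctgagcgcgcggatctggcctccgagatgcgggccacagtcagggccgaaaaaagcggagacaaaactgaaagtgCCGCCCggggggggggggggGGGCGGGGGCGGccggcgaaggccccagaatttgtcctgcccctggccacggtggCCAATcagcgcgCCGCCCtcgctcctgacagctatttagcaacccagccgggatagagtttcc
The Gsn window, chr2:35256109-35256358 on the plus strand, had 129 of its 250 bases inside the linked region. The Cd55 window, chr1:130462745-130462994 on the minus strand, had all 250 inside. The Pdgfra window, chr5:75152001-75152250, and the Twist2 window, chr1:91801211-91801460, both on the plus strand, had 0 bases in any listed region. Presence of CpG pairs did not separate these windows: Twist2 held 23 and Gsn 15, while Cd55 held 8 and Pdgfra 4, beside a median of 6 over all 32851 RefSeq windows of this length. An E-box lay at 1 place in Gsn and 1 in Pdgfra and at 0 in Cd55 and Twist2, and 66.2% of all windows hold one. The GC box occurred 2 times in Gsn, 2 times in Cd55, 4 times in Twist2 and 0 times in Pdgfra, and 32.7% of all windows hold it. Twist2 held 1 CCAAT box, as do 33.8% of all windows, while TATAAA is in 12.4% and the AP-1 motif in 4.5%. A match is a run of letters and was not tested as a binding site.

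Of the 3 transcription factors among the markers, Osr1 alone had a linked region. It lies over the gene's start on chromosome 12 from 9574360 to 9574771 (mm10), with its centre 125 bp inside the gene. It held 88 and 100 scaled reads in mdx (replicates 1 and 2) against 37 and 46 in wild type. Both mdx libraries were higher than both wild type libraries, with no overlap. The means were 94.0 ± 8.5 in mdx and 41.5 ± 6.4 in wild type (SD, n = 2 each). The limma fit to log2(value + 1) gave a 2.24-fold difference, or 1.17 on the log2 scale (SE 0.31, 95% interval 0.48 to 1.85, adjusted p = 0.0566). Groups that do not overlap with mdx higher were 26.8% of all tested regions and 8.72% of the named promoters. A log2 fold change as high or higher was found at 0.71% of the named promoters and at 11.29% of distal regions.

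Counting error at Osr1 was smaller than the gap between the groups. The 95% exact Poisson intervals, which cover counting error only, ran from 68.1 to 112.9 and from 79.9 to 123.4 scaled reads for mdx, and from 24.7 to 52.3 and from 36.9 to 56.1 for wild type, so the intervals of the groups did not meet. The adjusted p lay close to the threshold and depended on the setting: over the 11 alternatives that kept all 4 libraries it ran from 0.00868 to 0.0972, and it was under the threshold in 7. The difference at Osr1 ran against the shift of promoters as a class, whose median was -0.26 and whose share of the signal was lower in both mdx libraries.

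The next region after Osr1 was also higher in mdx, and it passed. It lies on chromosome 12 from 9584757 to 9585109, 3257 bp past the gene's end and 10.5 kb from its start, and the file links no gene to it. Its values were 127 and 125 scaled reads for mdx against 43 and 39 for wild type. The libraries of each group lay close together, and the groups were far apart. The means were 126.0 ± 1.4 for mdx and 41.0 ± 2.8 for wild type (SD, n = 2 each). The limma fit to log2(value + 1) gave a 3.03-fold rise, or 1.60 on the log2 scale (SE 0.29, adjusted p = 0.0151). Over the same 11 alternatives its adjusted p ran from 0.000167 to 0.0376. It was the 1 region to pass among 17 tested neighbours, the regions within 50 kb of a marker gene that are not linked to it, beside 4.65% of distal regions that rose.

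Widening the view to 250 kb on either side, a window chosen after the values were seen, added 2 regions around Osr1, and both were higher in mdx. The region 55.0 kb before the start held 53 and 40 scaled reads in mdx against 12 and 17 in wild type (log2 fold change 1.62, SE 0.45, limma, adjusted p = 0.0605), so it did not pass. The region 115.3 kb after the start, linked to a processed pseudogene with no gene name, held 35 and 29 in mdx and 0 and 2 in wild type. It met the filter on low values through the mdx libraries alone, where it is high, so its adjusted p (limma, 0.0182, and 0.0682 with a pseudocount of 0.1) is given as a description and supports nothing here. The windows of the 10 genes together held 69 tested regions. Of these 16 (23.2%) had mdx higher with no overlap, beside 26.8% of all tested regions, and 21 had mdx lower, which 25.9% of all tested regions show. An adjusted p under 0.05 was found for 2 (2.9%), the region 10.5 kb after the Osr1 start and that of the pseudogene, beside 4.18% of all tested regions. Neither this share nor that of higher regions was above the whole table's, while the share of lower regions was.

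**Figure D2:**
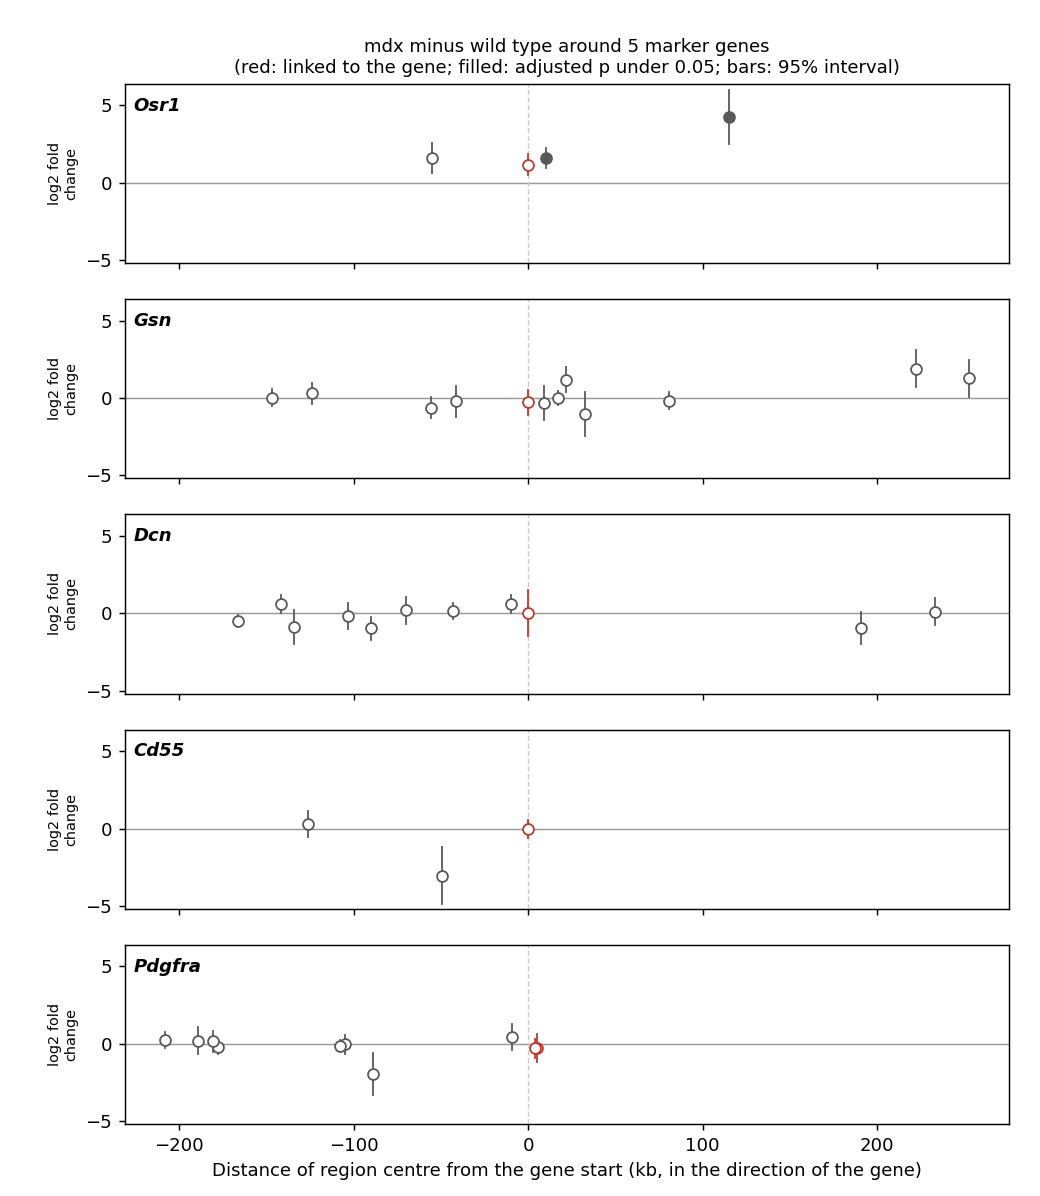
The log2 fold change, mdx minus wild type (vertical axis), of each tested region within 250 kb of the 5 genes with a linked region, by distance from the gene start in kb (horizontal axis). Points are estimates with 95% intervals, red where the region is linked to the gene, and filled where the adjusted p was under 0.05. The 4 regions around Osr1 lie above 0, of which the farthest after the start met the filter through its mdx values alone, and those around Gsn, Dcn, Cd55 and Pdgfra lie on both sides of 0. Some regions around Gsn, Cd55 and Pdgfra likewise met the filter through the values of a single group.

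Twist2 and Tcf21, basic helix-loop-helix factors of mesenchymal cells, had 0 linked regions. The region nearest to Twist2 lay 251.5 kb away, so its window held 0 regions. That nearest to Tcf21 lay 70.7 kb away. The 6 tested regions in the Tcf21 window had log2 fold changes from -0.26 to 0.94, with 0 passing, beside 4.18% of all tested regions.

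Pdgfra, the surface receptor that defines these progenitors, had no region at its start but 2 inside the gene, at 4157 and 4835 bp from the start. The first, on chromosome 5 from 75156239 to 75156658, held 84 and 77 scaled reads in mdx against 97 and 102 in wild type. Both mdx libraries were slightly lower, which 25.9% of all tested regions and 16.8% of distal regions show. The means were 80.5 ± 4.9 and 99.5 ± 3.5 (SD, n = 2 each), a log2 fold change of -0.30 with a 95% interval of -0.89 to 0.28 (limma, adjusted p = 0.539). The second, from 75157022 to 75157232, held 25 and 35 in mdx and 38 and 34 in wild type, so the groups overlapped (log2 fold change -0.27, interval -1.15 to 0.61, limma, adjusted p = 0.729). The upper ends of these intervals are rises of 1.22-fold and 1.52-fold. The region 9.0 kb before the start, linked to an unnamed pseudogene, held 58 and 36 in mdx and 35 and 33 in wild type and did not pass (limma, adjusted p = 0.558).

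Cd55, the decay-accelerating factor that protects cells from complement, had the highest level of the members. Its promoter, on chromosome 1 from 130462397 to 130463095, held 174 and 216 scaled reads in mdx against 264 and 154 in wild type. The wild type libraries lay on either side of both mdx libraries. The log2 fold change was -0.06 with SE 0.27 and a 95% interval of -0.63 to 0.52 (limma, adjusted p = 0.924), and its sign turned in 5 of the 15 alternatives. A distal region 49.3 kb before the start, picked out after its values were seen, held 1 and 1 scaled reads in mdx against 15 and 16 in wild type. It met the filter on low values through the wild type libraries alone, where it is high. It did not pass, and its adjusted p (limma, 0.0616) is a description only.

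Gsn encodes gelsolin, which severs actin filaments and is abundant in fibroblasts. Its promoter region, on chromosome 2 from 35256230 to 35256443, held 43 and 36 scaled reads in mdx against 56 and 41 in wild type, and the groups overlapped. The log2 fold change was -0.28, close to the median of named promoters, with a 95% interval of -1.07 to 0.51 (limma, adjusted p = 0.69). With 5 regions, the Gsn gene held more than any other member, and 4 of them are not linked to it by the file. The strongest of these, 17.3 kb after the start, held 250 and 220 in mdx and 219 and 249 in wild type, nearly the same in both groups (log2 fold change 0.01). The region 21.5 kb after the start held 58 and 78 in mdx and 24 and 35 in wild type, without overlap, but did not pass (log2 fold change 1.19, SE 0.37, limma, adjusted p = 0.0876). It was picked out after its values were seen.

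Of the 4 matrix genes Dcn alone had a linked region, and it had the lowest level of the members. Dcn encodes decorin, a small proteoglycan that binds collagen and transforming growth factor beta, and is among the most abundant transcripts of these progenitors. Its promoter region, on chromosome 10 from 97479476 to 97479703, held 10 and 12 scaled reads in mdx against 6 and 19 in wild type. The wild type libraries again lay on either side of the mdx libraries, and the region rested on 7, 10, 5 and 39 recovered reads. The log2 fold change of 0.02 had a 95% interval of -1.47 to 1.5 (limma, adjusted p = 0.994), whose upper end is a 2.82-fold rise. A region 10.0 kb before the Dcn start held 119 and 109 in mdx and 70 and 78 in wild type, higher in both mdx libraries, and did not pass (log2 fold change 0.62, limma, adjusted p = 0.194).

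Lum, which encodes the related proteoglycan lumican, lies next to Dcn and had 0 linked regions, the nearest region being that of the Dcn promoter at 85.8 kb. Pcolce, an enhancer of procollagen processing, and Mfap5, a protein of elastic microfibrils, also had 0. The nearest regions lay 3.9 kb from Pcolce, at the promoter of Mospd3, and 21.7 kb from Mfap5. In the 250 kb windows of these 3 genes, with 10, 10 and 13 tested regions, 0 regions passed, beside 4.18% of all tested regions.

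Compared per kb of region, which allows genes to be set beside each other, the place of Osr1 among the members differed between the groups. In wild type the order of mean scaled reads per kb was the Cd55 promoter (299.4), the first Pdgfra region (237.5), the Gsn promoter (227.7), the second Pdgfra region (171.4), the Osr1 promoter (101.0) and the Dcn promoter (55.1). Libraries overlapped among the first 3 of these and not between later neighbours. In mdx the Osr1 promoter (228.7) came after Cd55 (279.4) and before the first Pdgfra region (192.1), Gsn (185.4), the second Pdgfra region (142.9) and Dcn (48.5). There the libraries of Gsn and the first Pdgfra region overlapped, and those of the other neighbours did not, by small margins in most cases. Among the named promoters Osr1 stood at the 9.9th percentile per kb in wild type and at the 54.0th in mdx, while Dcn stood at 0.8 and 2.7, Gsn at 45.8 and 43.1 and Cd55 at 60.2 and 64.2.

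As a group the marker promoters showed no common direction. The 4 tested promoters had a median log2 fold change of -0.02, from -0.28 to 1.17, beside -0.26 for all named promoters. In 1 of the 4, Osr1, mdx was higher with no overlap, as in 8.72% of named promoters and 26.8% of all tested regions. Their summed signal was 315 and 364 in mdx and 363 and 260 in wild type, with overlap. With promoter regions in the table for 4 of 10 genes (40.0%), the markers were close to RefSeq protein-coding genes at large (9402 of 21896, 42.9%).

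Among other markers of fibro-adipogenic progenitors and muscle fibroblasts, 28 of 50 genes had a promoter region. Of 43 tested regions 2 were higher and 1 lower at an adjusted p under 0.05 (limma), beside 3.3% higher and 0.881% lower over all tested regions. The 2 higher regions were the promoter of Mme (238 and 257 scaled reads for mdx against 68 and 101 for wild type), a membrane peptidase, and a region 2040 bp inside Col1a2 (166 and 131 against 29 and 55), a chain of type I collagen. Both had higher values in each mdx library (limma, adjusted p = 0.0102 and 0.0157). The lower region was the promoter of Thy1, the surface glycoprotein CD90 of fibroblasts and other mesenchymal cells. It held 3 and 9 scaled reads in mdx against 51 and 29 in wild type, and so was lower in both mdx libraries. Both mdx values are under the minimum of 10, so the region met the filter through the wild type libraries alone, where it is high, and its test is a description only. The difference on the log2 scale was -2.64 (SE 0.62; limma, adjusted p = 0.0365). The adjusted p was over the threshold with no filter on low values (adjusted p = 0.0704), a pseudocount of 0.1 (0.0506) and voom (0.0661), and its log2 fold change moved to -1.98 when mdx replicate 1 was left out and to -3.30 when replicate 2 was. The median over the 27 tested promoters of this list was -0.27, beside -0.26 for all named promoters. Of these 27, 6 had mdx higher with no overlap, beside 8.72% of named promoters and 26.8% of all tested regions. Another 5 had mdx lower with no overlap, beside 25.9% of all tested regions.

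Marker genes of other cells that a sort of muscle could hold were read in the same way. Satellite cell markers had promoter regions for 15 of 19 genes (78.9%). The Pax7 promoter held 90 and 103 scaled reads in mdx against 93 and 124 in wild type. Of the other satellite cell genes listed first, Myf5, a myogenic factor, had, in the region nearest its start, 214 and 218 against 241 and 189. Calcr, the calcitonin receptor of quiescent cells, had 170 and 178 against 346 and 254, lower in both mdx libraries without passing (log2 fold change -0.77, limma, adjusted p = 0.0667). Leukocyte markers had promoter regions for 0 of 16 genes, Ptprc and Cd68 included, and 1 distal region at Csf1r with 19 and 21 in mdx and 9 and 15 in wild type. Endothelial markers had 1 of 15, at Tek, and Pecam1, Cdh5 and Kdr had 0 linked regions.

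Markers of pericytes and smooth muscle had promoter regions for 6 of 11 genes, among them Pdgfrb (37 and 46 in mdx, 59 and 39 in wild type), while Rgs5 and Cspg4 had 0 linked regions. Tendon cell markers had 2 of 7, Schwann cell markers 3 of 8 and muscle fibre markers 3 of 12. Tnmd, Sox10, Acta1 and Ckm had 0 linked regions. Others of the first-listed genes did not pass: for the larger region of Scx the values were 192 and 172 in mdx and 158 and 160 in wild type, for the Mkx promoter 28 and 44 against 73 and 40, and for the Myh1 promoter 87 and 110 against 44 and 73. In each of these lists of other cell types 0 regions passed (limma), beside 4.18% of all tested regions. Tested were 23 regions of satellite cell markers, 9 of pericytes and smooth muscle and 7 of muscle fibres. Tendon and Schwann cell markers had 6 each, endothelial markers 2 and leukocyte markers 1. At that share, 0 calls in lists this short says little about them.

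The summed promoter signal of the satellite cell list was 2719 and 2985 in mdx and 3874 and 3349 in wild type, lower in both mdx libraries, as was the promoter share of the signal. The median log2 fold change of its 17 tested promoters was -0.34, beside -0.26 for all named promoters. The summed promoter signal of the wider fibro-adipogenic list was 2463 and 2575 in mdx and 3077 and 2396 in wild type, with overlap. The sum for pericytes and smooth muscle was 569 and 554 against 652 and 638. Whether other cells in the sort take part in the difference at Osr1 was not tested. Measured beside it, the start of Pdgfra and those of Lum, Pcolce, Mfap5, Twist2 and Tcf21 had no region in the table used here, and the Dcn promoter held 19 scaled reads or fewer in each of the 4 libraries. In the wider fibro-adipogenic list 28 of 50 genes had a promoter region. Of its 43 tested regions 2, at Mme and Col1a2, were higher in mdx (limma, adjusted p under 0.05), beside 3.3% of all tested regions. Lower was 1, at Thy1, beside 0.881%, and it met the filter through the wild type libraries alone.

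**Figure D3:**
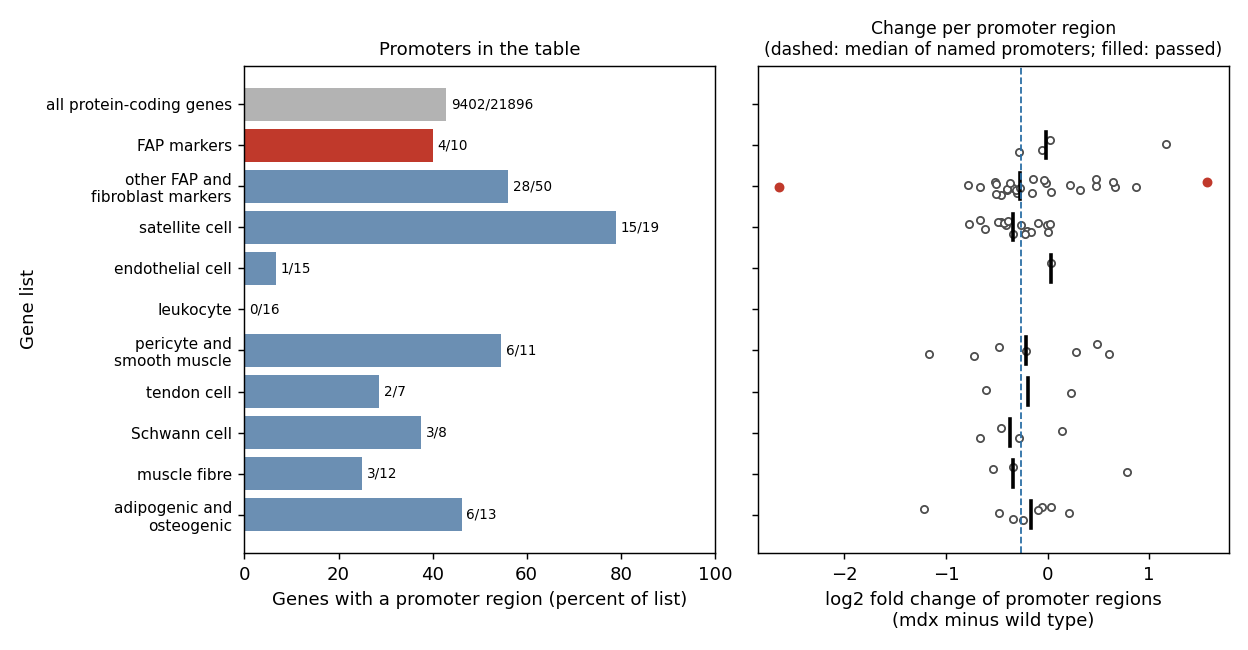
Left, the percent of each list's genes with a promoter region in the table (bars from 0, with counts); right, the log2 fold change, mdx minus wild type, of each tested promoter region, with a bar at the list's median and filled points for regions that passed. The 4 fibro-adipogenic marker promoters (FAP markers) lie near 0 except Osr1 at 1.17, and the leukocyte list has 0 promoter regions.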

How the data were processed

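Chromatin accessibility was measured by ATAC-seq on sorted quiescent satellite cells, with 2 mdx and 2 wild type libraries. MACS2 2.1.0, Picard 2.9.0, STAR 2.5.3a, Trimmomatic 0.33, DESeq and DESeq2 are named, with mm10 as the build, per the submitters' processing notes. The role of each tool, any shift for Tn5, the handling of duplicates and the pooling of libraries for region calls were not in the sources used here. From the authors came 1 deposited table of 35019 regions whose values are treated here as a score: whole numbers that are reads multiplied by 1 factor per library and rounded. This was read from the values: in the mdx libraries and wild type replicate 1, the values up to 400 that never occur (111, 56 and 73 of them) are exactly those that factors of 1.382, 1.162 and 1.222 skip, and in wild type replicate 2 a factor of 0.492 fits, with values that hold an extra read occurring 1.56 times as often as their neighbours. Dividing by the factor gives reads, to about 1 read in that library. Linked genes and distances to their starts are as the authors deposited them. A deposited fraction, the part of a region that lies in the gene body, was left out. Coordinates are printed as in the file.

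log2(value + 1) was fitted by limma 3.58.1 (R 4.3.3) with group as the only term and a trended prior variance, over the 33161 regions that reached 10 in 2 or more libraries; p-values are adjusted over all of them, and fold changes on this scale understate the change of low regions. The test was tried on 5 simulated tables with 200 changed regions in each. It recovered 1.6% of 1.5-fold, 26.8% of 2-fold and 77.6% of 4-fold changes, and called 0 of 163733 unchanged regions. A region that did not pass can therefore still differ between the groups. The simulated tables gave all regions 1 spread beyond counting error (dispersion 0.0128) and no shift between promoters and distal regions. The real table has such a shift and more regions that passed, so these rates, the 0 false calls included, need not hold for it. Gene positions and promoter sequences come from RefSeq (GRCm38.p6), and SciPy 1.17.1 gave the Poisson intervals. The marker genes, lists and tests were chosen with earlier results of these data known. The genes named are all 10 markers, the regions of each list that passed, the first 3 genes of each other list, and neighbouring regions that passed; 2 genes of these lists are not reported here. Neighbouring regions that did not pass were picked out after their values were seen. Alternatives covered scaling, centring, filter, pseudocount, error model, replicate block and leaving out each library.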

Additional observations from a re-analysis of the deposited data

How the results depend on the processing

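With 2 libraries per group, leaving out 1 library leaves the other alone in its group, with its spread assumed to be like that of the other group, and 0 regions passed in any of these 4 fits, so they do not bear on the calls. The number of member regions higher in mdx, 0 as reported, was 1 (the Osr1 promoter) with scaling by nuclear totals, promoter medians set equal, a mean of at least 50, a pseudocount of 10, voom, and the replicate block, where it passed at an adjusted p of 0.0355. The number lower was 0 throughout. Same-numbered libraries of the 2 groups deviated with a correlation of -0.109 over regions, and nothing says that the numbers pair them; the crossed replicate block, added after that value was seen, also gave 1 member higher. Over all regions, 1095 higher and 292 lower as reported, the counts were 1704 and 541 with cyclic loess, 1821 and 159 with promoter medians set equal, 404 and 54 with no filter, 2108 and 653 with the replicate block, and 3394 and 2067 with the crossed block. The lower count was also 3465 with distal medians set equal, 725 with a mean of at least 50, 190 with a pseudocount of 0.1, 580 with a pseudocount of 10 and 448 with voom. The cause of these moves was not tested.

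The median of the member promoters, -0.02, was -0.36 with distal medians set equal, a setting that lowers all regions, and 0.55 with a mean of at least 50, which leaves 2 promoters. Leaving out 1 library gave -0.13 to 0.16. Values close to 0 turned sign: Cd55 was at 0.01 with cyclic loess, 0.14 with promoter medians set equal and 0.07 with voom, and from -0.44 to 0.33 without 1 library. Dcn was at -0.32 with distal medians set equal, -0.04 with a pseudocount of 10 and -0.32 with voom, and from -0.74 to 0.77 without 1 library. Osr1 kept its sign throughout, from 0.83 to 1.36, as did the region after it, from 1.26 to 1.80. Thy1 ran from -1.98 without mdx replicate 1 to -3.30 without mdx replicate 2, and was at -1.63 with a pseudocount of 10. The Dcn region rests on few reads and on wild type libraries that lie far apart, and the parts of depth and of spread were not separated.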

Other observations

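Genes of the fates that fibro-adipogenic progenitors can take were read as well. Of 13 genes of fat and bone differentiation, 6 had a promoter region. Of 10 tested regions 0 passed in either direction (limma, adjusted p under 0.05), beside 4.18% of all tested regions. The promoter of Pparg, the nuclear receptor that drives fat cell differentiation, had values of 15 and 46 for mdx against 66 and 60 for wild type, lower in both mdx libraries, and did not pass (log2 fold change -1.22, SE 0.48, limma, adjusted p = 0.153). Cebpa, which acts with it, had 231 and 241 for mdx against 312 and 286 for wild type, again without passing (-0.34 on the log2 scale; limma, adjusted p = 0.317). Cebpb held 87 and 94 in mdx and 89 and 104 in wild type, with overlap. The median over the 8 tested promoters was -0.16, beside -0.26 for all named promoters.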
